A study of Mus musculus with 8 samples.

Results

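The Wnt ligands, their Frizzled receptors and the secreted inhibitors of the Sfrp and Dkk families were followed in RNA sequencing of mouse paw tissue. They were taken by symbol, as every row whose name begins with Wnt, Fzd, Sfrp or Dkk and a number. The deposited tables held 37 such genes among 22609, namely 19 Wnt, 10 Fzd, 4 Sfrp and 4 Dkk genes, and 30 of the 37 had enough reads to be tested. The 8 libraries came from 4 female and 4 male C57BL/6J mice. Both sexes carried the same treatment label, prolactin at 0.1 µg injected into the sole of the paw once a day for 12 days. No PBS or shorter arm was analysed here, so the values show females against males under prolactin, with no untreated background. Age is not given in the sources used here, and neither is whether animals were pooled. The p-values therefore measure the spread between these libraries.

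Wnt proteins are lipid-modified secreted signals that bind Frizzled receptors through a cysteine-rich domain. With the co-receptors Lrp5 and Lrp6 they stabilise beta-catenin, which then acts with the Lef1 and Tcf factors in the nucleus; other Wnt signals act without beta-catenin, on cell shape and polarity. Sfrp proteins carry a Frizzled-like domain and bind Wnt proteins outside the cell, and Dkk1, Dkk2 and Dkk4 act on Lrp5 and Lrp6. In skin the pathway is known for starting hair follicles, driving hair growth and maintaining the epidermis, and in mice Dkk2 keeps the skin of the sole free of hair.

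Counts in genes summed to 16753528 to 24993744 per library. Xist stood at 1568 to 1860 CPM (read counts relative to library size, scaled by TMM) in the female libraries and at 1.39 to 1.91 CPM in the male libraries, as labelled. The label of paw tissue was checked against markers. The keratinocyte genes Krt5 and Krt14 and the collagen gene Col1a1 were abundant in all 8 libraries, while the bone genes Bglap, Ibsp and Sp7 lay under 0.5 CPM throughout and Dmp1, a gene of bone cells, reached 0.648 CPM at most. Tendon and joint genes of the same list were present, with Fmod at up to 605 CPM, Prg4 at up to 435 CPM and Comp at up to 224 CPM. Marker scores set single libraries apart. Female replicate 3 held almost no fast muscle transcript (a score, the mean log2 CPM of 20 muscle genes, of 0.74 against 5.03 to 10.08 in the other 7 libraries), and male replicate 2 held the most. Female replicate 4 had the highest fibroblast score (9.26, others 8.03 to 8.86) and the lowest keratinocyte score (9.47, others 9.56 to 10.11). Shares of tissue and RNA per cell cannot be told apart in bulk samples: fewer cells of a type and less RNA per cell give the same CPM.

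Wnt4 was the most abundant of the ligands. Per kb of coding sequence it averaged 135 ± 22.0 CPM (SD, n = 8), against 26.5 ± 6.00 CPM per kb for Wnt5a, the next in order, and its lowest library (118 CPM per kb) lay above the highest of Wnt5a (36.4). Wnt4 is known for kidney tubule and female reproductive tract development. In CPM it stood at 131, 195, 153 and 125 in female replicates 1 to 4, against 142, 124, 138 and 133 in male replicates 1 to 4. Female replicate 2 was the highest, and the other 7 libraries lay between 124 and 153 CPM, so the sexes overlapped. Wnt4 made up 47.6 to 59.5% of the summed ligand level per kb in females and 47.8 to 50.3% in males.

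Behind Wnt4 the ligands formed a graded series in which every pair of neighbours overlapped between libraries. Wnt5a, which signals largely without beta-catenin and drives limb outgrowth, was followed by Wnt7b, a ligand of lung and skin (20.6 ± 4.09 CPM per kb, SD, n = 8), and by Wnt3 (17.6 ± 2.26). Wnt9a, a ligand of developing joints, stood at 15.8 ± 5.70 CPM per kb, Wnt10a at 11.5 ± 2.92 and Wnt11 at 10.5 ± 2.18. Wnt10b, Wnt2, Wnt5b, Wnt6 and Wnt3a came next, with 7.73 down to 2.44 CPM per kb, and Wnt2b (1.03) and Wnt16 (0.973) were the lowest of the ligands tested. This order depends on the length used. Per kb of whole transcript, a choice made after seeing the data, Wnt5a was the ligand of rank 6 rather than 2. Other ligands moved too, among them Wnt10a (rank 4 rather than 6) and Wnt11 (rank 9 rather than 7). Wnt2b (0.362 CPM per kb) was then below Wnt16 (0.639), while Wnt4 stayed first at 34.0 CPM per kb.

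Among the receptors Fzd6 had the highest level, at 41.6 ± 7.22 CPM per kb of coding sequence, followed by Fzd7 (30.1 ± 3.96) and Fzd1 (30.1 ± 2.91; SD, n = 8 each). Fzd6 orients hair follicles in mouse skin. It was above Fzd7 in 7 of 8 libraries, while Fzd7 was above Fzd1 in 3 of 8, so the order of that second pair is not settled. In CPM, Fzd6 stood at 71.5, 109, 104 and 73.6 in females and at 99.9, 72.4, 82.3 and 96.1 in males. Fzd1 was the steadier one, with 58.1, 52.7, 61.9 and 67.6 CPM in females against 53.4, 53.7, 62.7 and 53.2 CPM in males. Fzd4, the receptor that also binds Norrin in retinal vessels, averaged 16.2 ± 7.85 CPM per kb, and Fzd2, Fzd5, Fzd3, Fzd10 and Fzd8 ran from 9.20 down to 3.79. Fzd9 was the lowest, at 1.20 ± 1.13 CPM per kb. Per kb of whole transcript Fzd6 stayed first (20.5 CPM per kb), but the order below it differed. Fzd1 (13.8) was then above Fzd7 (11.4), and Fzd2 (4.30) above Fzd4 (3.88). Fzd3 (0.972) was the receptor of rank 9 rather than 7, just above Fzd9 (0.930).

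Of the inhibitors, Sfrp1 was highest at 57.2 ± 7.90 CPM per kb of coding sequence, and was above Sfrp4 (34.3 ± 20.4) in 7 of 8 libraries. Per kb of whole transcript the order differed: Dkk3 (13.9 CPM per kb) was above Sfrp1 (12.3), and Sfrp2 (11.3) above Sfrp4 (9.26). Per kb of coding sequence Sfrp2 averaged 25.5 ± 6.31 and Sfrp5, which is made by fat cells among others, 13.9 ± 9.42 CPM per kb. Dkk3 averaged 44.5 ± 12.9 CPM per kb, and its lowest library (29.0) lay above the highest of Dkk2 (25.8). Dkk2 had the smallest spread of the 30 tested genes: 23.3, 22.1, 21.4 and 25.1 CPM per kb in females and 24.4, 22.5, 25.8 and 23.0 CPM per kb in males, a coefficient of variation of 6.51% over the 8 libraries.

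**Figure D1:**
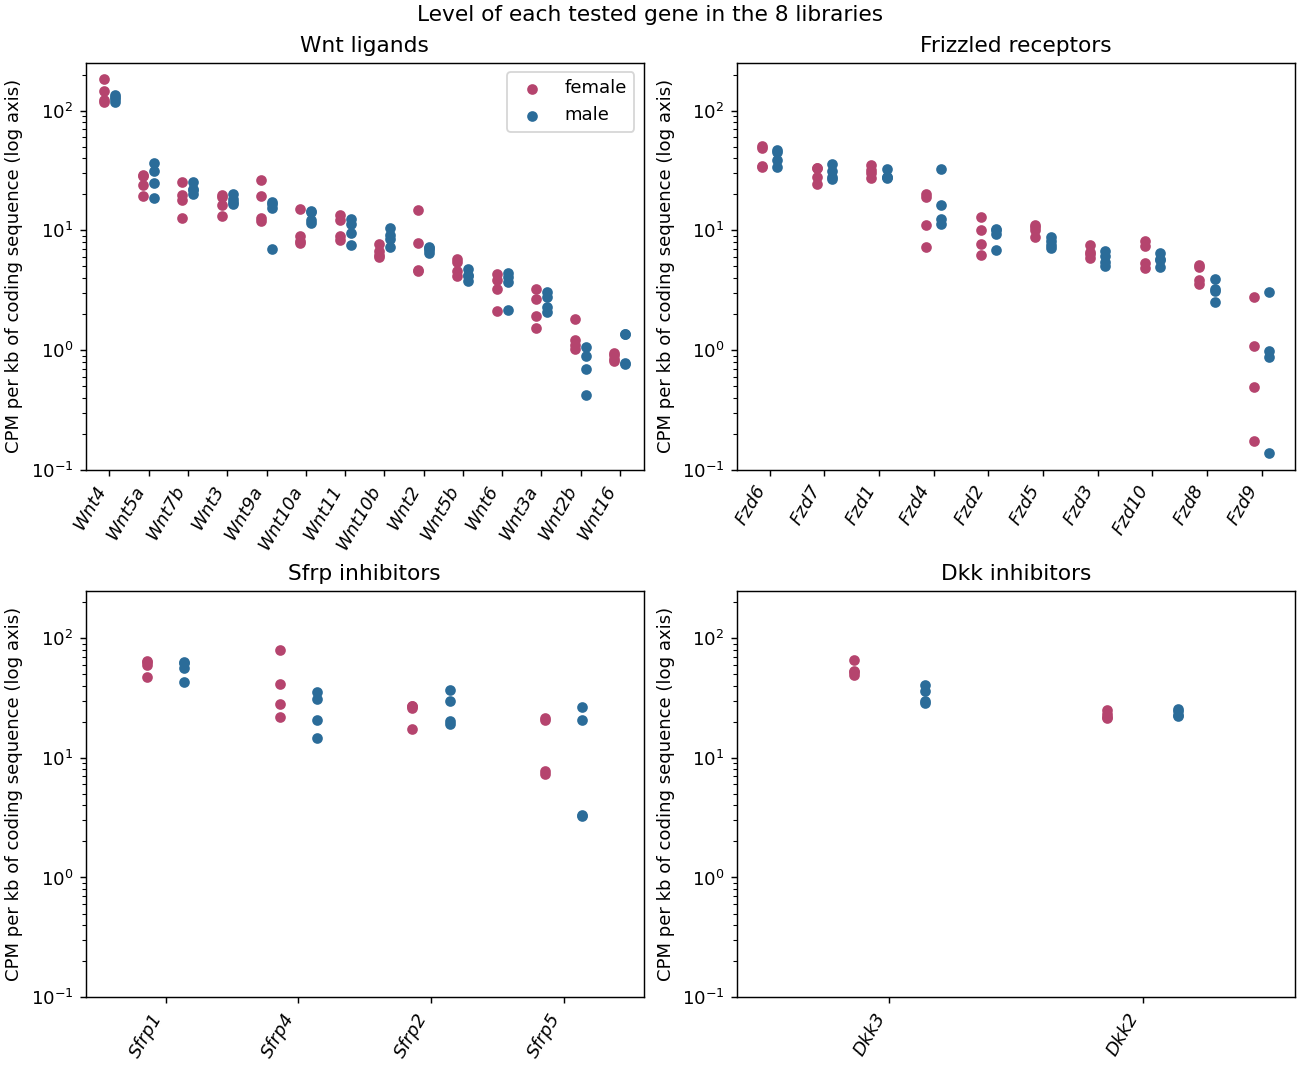
Level of the 30 tested genes in CPM per kb of coding sequence on a log axis, by family and in order of their mean; each point is 1 library, females to the left of males. Wnt4 stands apart from the other ligands (118 or more in every library), Fzd9 and Sfrp5 spread most widely, and Dkk3 is the gene whose female and male points do not overlap.

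The 7 genes that were not tested had few or no reads. Dkk4, an early marker of forming hair follicles, had 0 counts in all 8 libraries, which allows up to 0.177 CPM in the shallowest and 0.116 CPM in the deepest (3 counts, counting error only). Wnt8b had 1 count in female replicate 3 and 0 elsewhere. Wnt1 had 1, 0, 1 and 4 counts in females and 1, 0, 3 and 0 in males, and Wnt8a had 0, 6, 0 and 2 in females and 0, 1, 0 and 1 in males. Dkk1, the best known of the Lrp5 and Lrp6 antagonists, had 1, 0, 1 and 6 counts in females against 0, 1, 0 and 1 in males. Wnt7a had 4 to 8 counts per library in females and 5 to 14 in males, and Wnt9b had 7 to 10 and 4 to 12. The sexes were not compared for these genes.

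The design asks whether these transcripts differ between the sexes in the prolactin-treated paw. edgeR's quasi-likelihood test called none of the 30 tested genes, at a Benjamini-Hochberg adjusted p under 0.05 over all 14790 genes tested. Of all tested genes it called 0.0947% (14 genes). With an unadjusted p under 0.05 there were 5 of the 30 (16.7%), against 6.53% of all tested genes. DESeq2 called 1 of the 30, against 0.651% of all its tested genes, and limma-voom called 0, against 0.108%. Log2 fold changes, female over male, lay above 0 for 17 and below 0 for 13 genes, with a median of 0.05, against 0.01 over all tested genes.

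Dkk3 showed the clearest difference. It encodes a divergent Dkk protein that does not bind Lrp6 as Dkk1 does. Its libraries stood at 55.9, 51.1, 54.8 and 69.0 CPM in females, against 37.9, 30.3, 42.2 and 31.3 CPM in males. The lowest female library thus lay above the highest male one. Dkk3 was the sole member of the 30 whose sexes did not overlap (3.33%), where 4.73% of all tested genes did not. Females averaged 57.7 ± 7.81 CPM and males 35.4 ± 5.65 CPM (SD, n = 4 each), and the log2 fold change came to 0.70 (SE 0.14). edgeR gave an adjusted p of 0.205 and limma-voom 0.202, neither of which passes. DESeq2 gave 0.0016 and called it higher in females, where it called 0.317% of all its tested genes higher. With 1 library left out the log2 fold change stayed between 0.60 (without female replicate 4) and 0.80 (without male replicate 3), and the edgeR adjusted p between 0.296 and 0.657. Through Dkk3 the summed level of both Dkk genes per kb was 70.9 to 91.0 CPM in females against 51.5 to 66.1 CPM in males.

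Marker genes of hair lay on the same side of 0 as Dkk3, without passing the test. All 22 tested genes of the hair shaft and inner root sheath list lay above 0 (median log2 fold change 0.43), none was called, and none had an unadjusted p under 0.05 (edgeR; smallest adjusted p = 0.920). These genes varied together: each of them peaked in female replicate 3, and most had their minimum in male replicate 2. Tchh, for example, stood at 388 CPM in the former library and at 47.9 CPM in the latter. Their common sign therefore does not amount to 22 separate observations. The hair score was 3.60 to 5.19 in females and 2.65 to 4.66 in males, so it overlapped. Over the 8 libraries the correlation of Dkk3 with that score was r = 0.38 (exact permutation p = 0.352, adjusted p = 0.857 over all tested genes) and rho = 0.48 (exact permutation p = 0.243, adjusted p = 1), and r was -0.22 without female replicate 3 and male replicate 2. Of 6 tested markers of the dermal papilla, the mesenchymal core of the follicle, 4 lay above 0, and their score was 1.75 to 2.02 in females against 1.17 to 1.80 in males. Within the sexes the r of Dkk3 with the hair score was -0.284 among the 4 females and 0.696 among the 4 males. With the fibroblast score r was 0.899 among the 4 females and 0.894 among the 4 males, but 0.16 over the 8 libraries. The part of hair, papilla or fibroblast content in the Dkk3 difference was not tested. With the fast muscle score as a covariate its log2 fold change was 0.72 (edgeR adjusted p = 0.150).

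**Figure D2:**
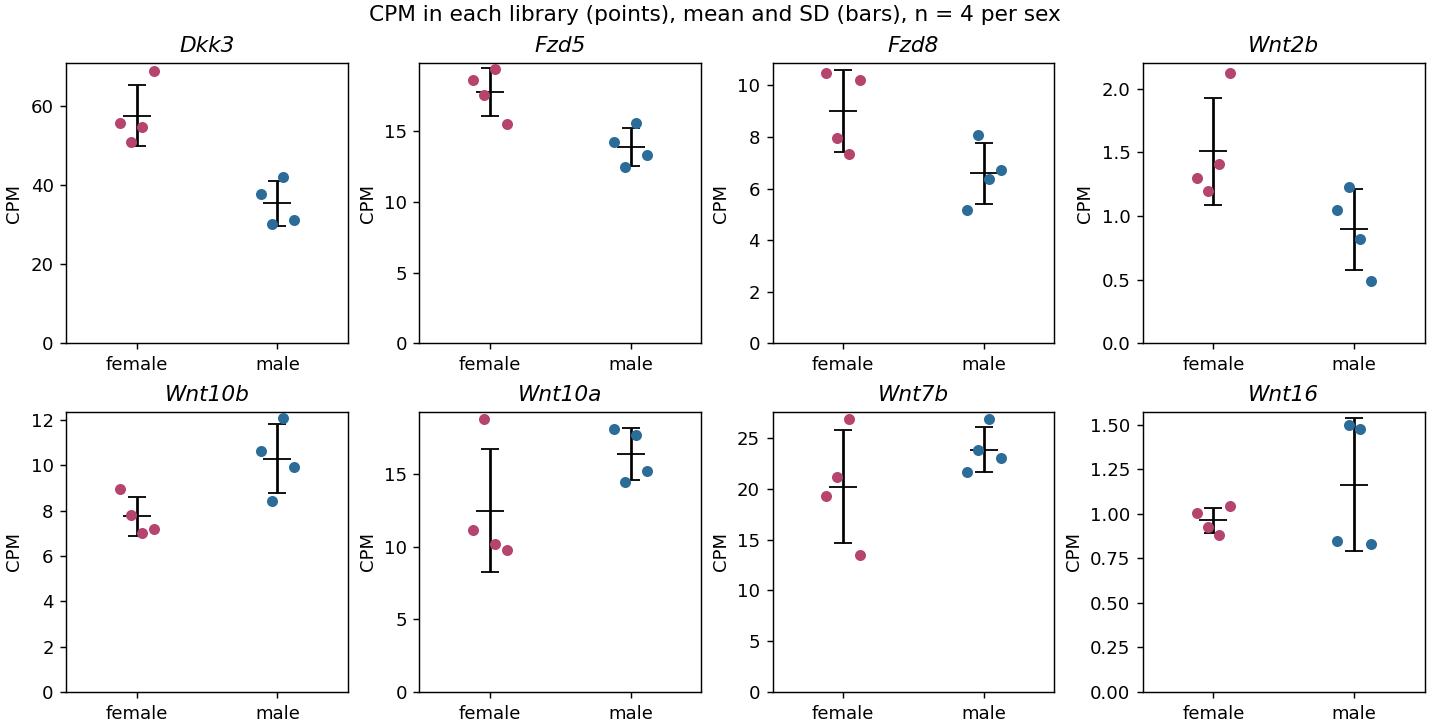
CPM in each library (points) with mean and SD (bars, n = 4 per sex) for the 4 genes of smallest p above 0 (top row: Dkk3, Fzd5, Fzd8, Wnt2b) and below 0 (bottom row: Wnt10b, Wnt10a, Wnt7b, Wnt16), females left of males, each axis starting at 0. The Dkk3 points of females run from 51.1 to 69.0 CPM, those of males from 30.3 to 42.2 CPM, and in the other 7 panels the sexes overlap.

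Both receptors of smallest p lay above 0. Fzd5, which acts in gut and eye development, had 18.6, 17.6, 19.4 and 15.5 CPM in females against 14.2, 12.5, 15.5 and 13.3 CPM in males. The sexes overlapped at one point, female replicate 4 and male replicate 3 (log2 fold change 0.36, SE 0.11, edgeR adjusted p = 0.637). Fzd8, its close relative, had 10.5, 7.95, 7.33 and 10.2 CPM in females and 5.18, 8.08, 6.38 and 6.71 CPM in males, and male replicate 2 was above 2 of the 4 females (0.45, SE 0.18, adjusted p = 0.749). The other 8 receptors had log2 fold changes from -0.34 (Fzd4, SE 0.43) to 0.18 (Fzd10, SE 0.19), and neither Fzd6 (0.03, SE 0.17) nor Fzd7 (-0.04, SE 0.13) nor Fzd1 (0.11, SE 0.10) passed.

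Among the ligands the smallest p values lay on both sides. Wnt10b, which promotes hair growth and holds back fat cell formation, had 8.96, 7.81, 7.02 and 7.21 CPM in females against 10.7, 8.45, 12.1 and 9.94 CPM in males. Its sexes overlapped only through female replicate 1, which lay above male replicate 2 (log2 fold change -0.41, SE 0.15, edgeR adjusted p = 0.674). Wnt10a, whose human mutations affect teeth, hair and the skin of palms and soles, had 11.1, 18.8, 10.2 and 9.80 CPM in females and 18.1, 14.4, 17.7 and 15.2 CPM in males. Female replicate 2 was the highest library of all and the other 3 females were below every male (-0.39, SE 0.22, adjusted p = 0.841). Without female replicate 2 the log2 fold change of Wnt10a was -0.66, with an edgeR adjusted p of 0.360.

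Wnt2b was low, at 1.30, 1.20, 1.41 and 2.12 CPM in females and 1.05, 1.23, 0.818 and 0.490 CPM in males (22 to 55 counts per female and 10 to 23 per male library). The sexes overlapped through female replicate 2 and male replicate 2, and the fold change was 0.76 on the log2 scale (SE 0.33, edgeR adjusted p = 0.761). Wnt7b had 19.3, 21.2, 26.9 and 13.5 CPM in females and 21.7, 23.9, 26.9 and 23.0 CPM in males (-0.24, SE 0.19, adjusted p = 0.949). Wnt16, a ligand of cortical bone, had 17 to 28 counts per library and did not pass (-0.27, SE 0.27, adjusted p = 0.996). The abundant ligands Wnt4 (0.17, SE 0.14, adjusted p = 0.953) and Wnt5a (-0.14, SE 0.22, adjusted p = 0.999) did not pass either. The remaining ligands had log2 fold changes between -0.13 (Wnt3a) and 0.33 (Wnt9a). Single libraries weighed on several of these values: without female replicate 4, Wnt9a was at 0.06 and Wnt7b at -0.088, without female replicate 3 Wnt7b was at -0.407, and without female replicate 2 Wnt4 was at 0.021. Wnt9a was at 0.102 without male replicate 4, and Wnt16 at -0.132 and -0.134 without male replicate 2 or 3.

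The Sfrp inhibitors gave no call. Sfrp4 had 45.6, 31.0, 24.1 and 87.8 CPM in females against 22.9, 34.2, 38.5 and 16.1 CPM in males. Female replicate 4 was far above the rest: the difference was 0.76 on the log2 scale (SE 0.44, edgeR adjusted p = 0.860) with it and 0.26 without it. Sfrp1 had 44.6, 59.3, 60.7 and 55.7 CPM in females and 58.3, 40.6, 53.2 and 59.0 CPM in males (0.06, SE 0.14, adjusted p = 0.999). Sfrp2 and Sfrp5 had log2 fold changes of -0.11 (SE 0.24) and 0.08 (SE 0.77), and Dkk2 had -0.06 (SE 0.09), an estimate that ran from -0.111 to -0.021 with 1 library left out.

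**Figure D3:**
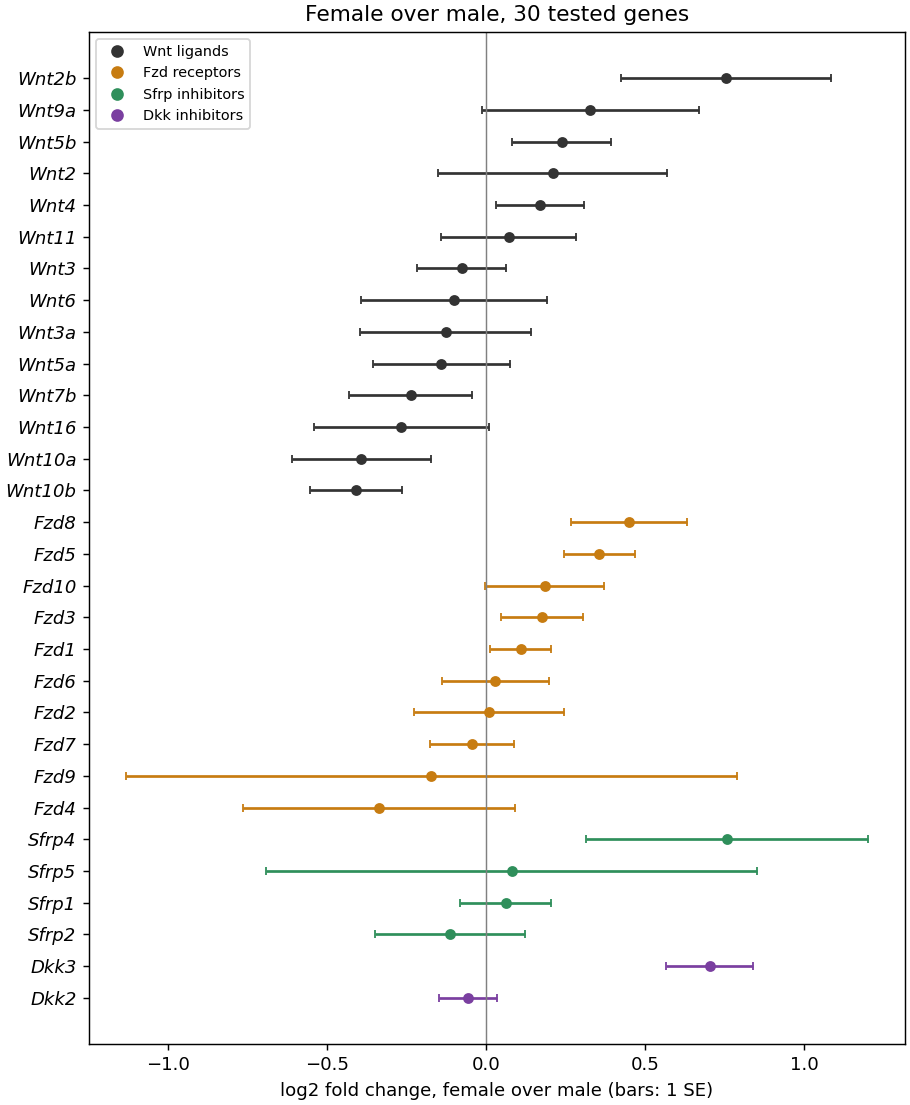
Log2 fold change, female over male, of the 30 tested genes with bars of 1 SE, grouped by family and ordered within it. Dkk3 (0.70, SE 0.14) lies farthest from 0 in units of its SE, while Fzd9 (-0.17, SE 0.96), Sfrp5 (0.08, SE 0.77) and Sfrp4 (0.76, SE 0.44) have the widest bars.

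No gene of the rest of the pathway was called either. Of 72 other genes in 7 lists, 69 were in the tables and 66 were tested; edgeR called 0 of them, and 39 lay above 0 and 27 below, with a median log2 fold change of 0.02. An unadjusted p under 0.05 was reached by 5 of the 66, where 6.53% of all tested genes reached it. The sexes did not overlap for 4 of the 66 (Gsk3a, Tcf7l2, Nkd2 and Cd44), where 4.73% of all tested genes did not; both counts are near those shares. The 2 genes that load and export Wnt proteins were Porcn, the acyltransferase (0.13, SE 0.15), and Wls, the carrier (0.10, SE 0.09), and neither passed. Of 13 co-receptor and receptor genes, Lgr4, a receptor for R-spondins, had the smallest p (females 77.1 ± 7.81 CPM, males 65.7 ± 5.78 CPM, difference 0.23, SE 0.10, edgeR adjusted p = 0.749), followed by Rnf43, a ligase that removes Frizzled from the surface (0.20, SE 0.13).

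Of 11 tested secreted regulators 9 lay below 0, where 6995 of all 14790 tested genes did. The other 2, Frzb (0.64, SE 0.50) and Ndp (0.63, SE 0.37), lay above 0 with the largest fold changes of the list, and neither passed. Wif1, which binds Wnt proteins, averaged 43.6 ± 5.93 CPM in the female and 54.3 ± 7.56 CPM in the male libraries (-0.31 on the log2 scale, SE 0.13, edgeR adjusted p = 0.749), and Apcdd1, a membrane inhibitor expressed in hair follicles, had -0.16 (SE 0.08). In the cytoplasm, Gsk3a, one of the kinases that mark beta-catenin for destruction, had 77.6, 75.2, 73.9 and 71.7 CPM in females against 85.4, 86.5, 80.1 and 81.1 CPM in males, without overlap but with a small difference (-0.16, SE 0.06, adjusted p = 0.706). The scaffold gene Apc had 0.12 (SE 0.07). Of 12 nuclear factor genes the smallest p belonged to Tcf7l2 (0.25, SE 0.11) and the corepressor Tle3 (-0.16, SE 0.08). Of 9 polarity genes it belonged to Prickle1 (0.25, SE 0.16) and Vangl1 (0.10, SE 0.10).

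Genes that beta-catenin induces in many tissues lay above 0 at 11 of 15 tested, where 7795 of all 14790 tested genes did, with a median log2 fold change of 0.13 and no call. Nkd2, a feedback inhibitor that binds Dishevelled, had 41.5, 42.7, 63.1 and 45.3 CPM in females and 37.3, 30.9, 35.4 and 39.6 CPM in males (0.43, SE 0.15, edgeR adjusted p = 0.669). Its sexes did not overlap, and neither did those of Cd44, a hyaluronan receptor (0.27, SE 0.10, adjusted p = 0.736), so 2 of the 15 were apart, where 700 of all 14790 tested genes were. Axin2, the target most widely read as a measure of beta-catenin activity, stood at 25.7 ± 2.19 CPM in the female and 26.4 ± 1.75 CPM in the male libraries (-0.04, SE 0.09, adjusted p = 0.999).

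Over the 8 libraries the members differed widely in their spread. Fzd9 had 4.95, 0.878, 0.309 and 1.93 CPM in females and 1.54, 5.46, 1.75 and 0.245 CPM in males, a 22.3-fold range whose ends are both male. Its lowest values rest on few reads, 5 counts in male replicate 4 and 7 in female replicate 3. Sfrp5 had 19.5, 7.30, 6.84 and 20.3 CPM in females and 3.09, 25.1, 19.7 and 3.14 CPM in males, an 8.13-fold range, again between males. Sfrp4 (5.47-fold), Fzd4 (4.44-fold), Wnt2b (4.33-fold), Wnt9a (3.79-fold) and Wnt2 (3.18-fold) came next, as ranges over both sexes, and the other 23 tested genes stayed within 2.28-fold, the range of Dkk3.

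These ranges were set beside the content of each library in muscle, epidermis, fibroblasts and hair. Markers of fat cells, Schwann cells and endothelium were also listed, but the relation of the members to them was not tested. For every tested gene, log2 CPM was correlated with 4 marker scores over the 8 libraries, with exact permutation p adjusted over all 14790 genes for each score. The scores are not independent of each other: the fast muscle score had r = -0.70 with the keratinocyte score and 0.62 with the fibroblast score, and the keratinocyte and fibroblast scores had r = -0.78. They also share each library's total with the members. The relations are descriptions of which libraries are high, and no cause is read from them.

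The fast muscle score went with 1 of the 30 genes by Pearson's r (3.33%, against 4.22% of all tested genes). Fzd9 was high where muscle transcript was high, with its top values in male replicate 2 and female replicate 1 (r = 0.89, exact permutation p = 0.000992, adjusted p = 0.0316; rho = 0.95, exact permutation p = 0.00114, adjusted p = 0.0258). Without female replicate 3 and male replicate 2 it had r = 0.99 (exact permutation p = 0.00278, unadjusted). After adjustment over all tested genes no member passed without those libraries, Fzd9 included. No tested gene did, because 6 libraries allow only 720 pairings, which bounds the smallest p. This outcome therefore does not show that the relation fails. Its r was 0.94 among the 4 females and 0.99 among the 4 males. By Spearman's rho, Sfrp1 also passed, in the opposite direction (rho = -0.98, exact permutation p = 0.000397, adjusted p = 0.0133; r = -0.75, p = 0.0339, adjusted p = 0.183), so 2 of the 30 did (6.67%, against 5.86% of all tested genes). Without those libraries Sfrp1 had r = -0.86. With the keratinocyte score Sfrp1 rose but did not pass (rho = 0.83, exact permutation p = 0.0154, adjusted p = 0.0820; r = 0.65, exact permutation p = 0.0749, adjusted p = 0.19). Fzd4 (rho = 0.90, exact permutation p = 0.00456, adjusted p = 0.0560; r = 0.63, adjusted p = 0.290) missed the threshold, as did Wnt6 (r = 0.85, exact permutation p = 0.00618, adjusted p = 0.0871; rho = 0.81, adjusted p = 0.124).

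The keratinocyte score went with 4 of the 30 genes by Pearson's r (13.3%, against 8.88% of all tested genes). Fzd6 was highest in the libraries richest in keratinocyte transcript, female replicates 2 and 3 (r = 0.93, exact permutation p = 0.00149, adjusted p = 0.0330; rho = 0.88, exact permutation p = 0.00724, adjusted p = 0.0563), and r was 0.97 within each sex. Without female replicates 1 and 4, the libraries farthest from the median score, it was 0.96 (exact permutation p = 0.00972). Wnt3, a ligand that acts through beta-catenin, had 17.4, 20.3, 21.1 and 14.1 CPM in females and 18.3, 17.7, 19.5 and 21.5 CPM in males. It rose with the score (r = 0.89, exact permutation p = 0.00141, adjusted p = 0.0327; rho = 0.90, exact permutation p = 0.00456, adjusted p = 0.0493), at r = 0.93 in females and 0.67 in males. Without those 2 libraries r was 0.77 (exact permutation p = 0.0694, unadjusted). After adjustment no tested gene passed without them, Fzd6 and Wnt3 included, with the same limit of 720 pairings.

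Wnt2 and Sfrp4 ran the other way. Wnt2, known from lung and placenta, had 8.54, 5.04, 4.99 and 15.9 CPM in females and 7.36, 7.65, 7.85 and 6.96 CPM in males (r = -0.86, exact permutation p = 0.000149, adjusted p = 0.0166; rho = -0.98, exact permutation p = 0.000397, adjusted p = 0.0210). Its r was -0.93 in females and -0.70 in males. Without female replicates 1 and 4 Wnt2 had r = -0.73 (exact permutation p = 0.0750, unadjusted) and rho = -0.94. Like every tested gene in these 6 libraries, it did not pass after adjustment. Sfrp4 had r = -0.85 (exact permutation p = 0.00402, adjusted p = 0.0479) and rho = -0.79 (exact permutation p = 0.0279, adjusted p = 0.110). Without female replicates 1 and 4 its r was -0.57 (exact permutation p = 0.242, unadjusted). Within the sexes r was -0.92 among the 4 females and -0.78 among the 4 males. By Spearman's rho the 4 genes past the threshold were Wnt2, Wnt3, Fzd2 (rho = -0.90, exact permutation p = 0.00456, adjusted p = 0.0493) and Wnt9a (rho = -0.90, the same p), against 9.25% of all tested genes.

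No member passed for the fibroblast score (1.15% of all tested genes did by Pearson's r) or for the hair score (0% of all tested genes). With the fibroblast score Wnt2 had the largest r, 0.95 (exact permutation p = 0.000918, adjusted p = 0.0552; rho = 0.88, adjusted p = 0.200), then Fzd2 with 0.91 (exact permutation p = 0.00221, adjusted p = 0.0619; rho = 0.81, adjusted p = 0.273). Dkk2, despite its narrow range, had r = 0.88 (exact permutation p = 0.00444, adjusted p = 0.0763) and rho = 0.95 (exact permutation p = 0.00114, adjusted p = 0.143). Without female replicates 3 and 4, the libraries farthest from the median fibroblast score, r was 0.89 for Wnt2, 0.73 for Fzd2 and 0.81 for Dkk2. With the hair score, Fzd3, a receptor of axon guidance and polarity, had the largest r, 0.86 (exact permutation p = 0.00821, adjusted p = 0.846; rho = 0.76, adjusted p = 1), and 0.47 without female replicate 3 and male replicate 2.

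**Figure D4:**
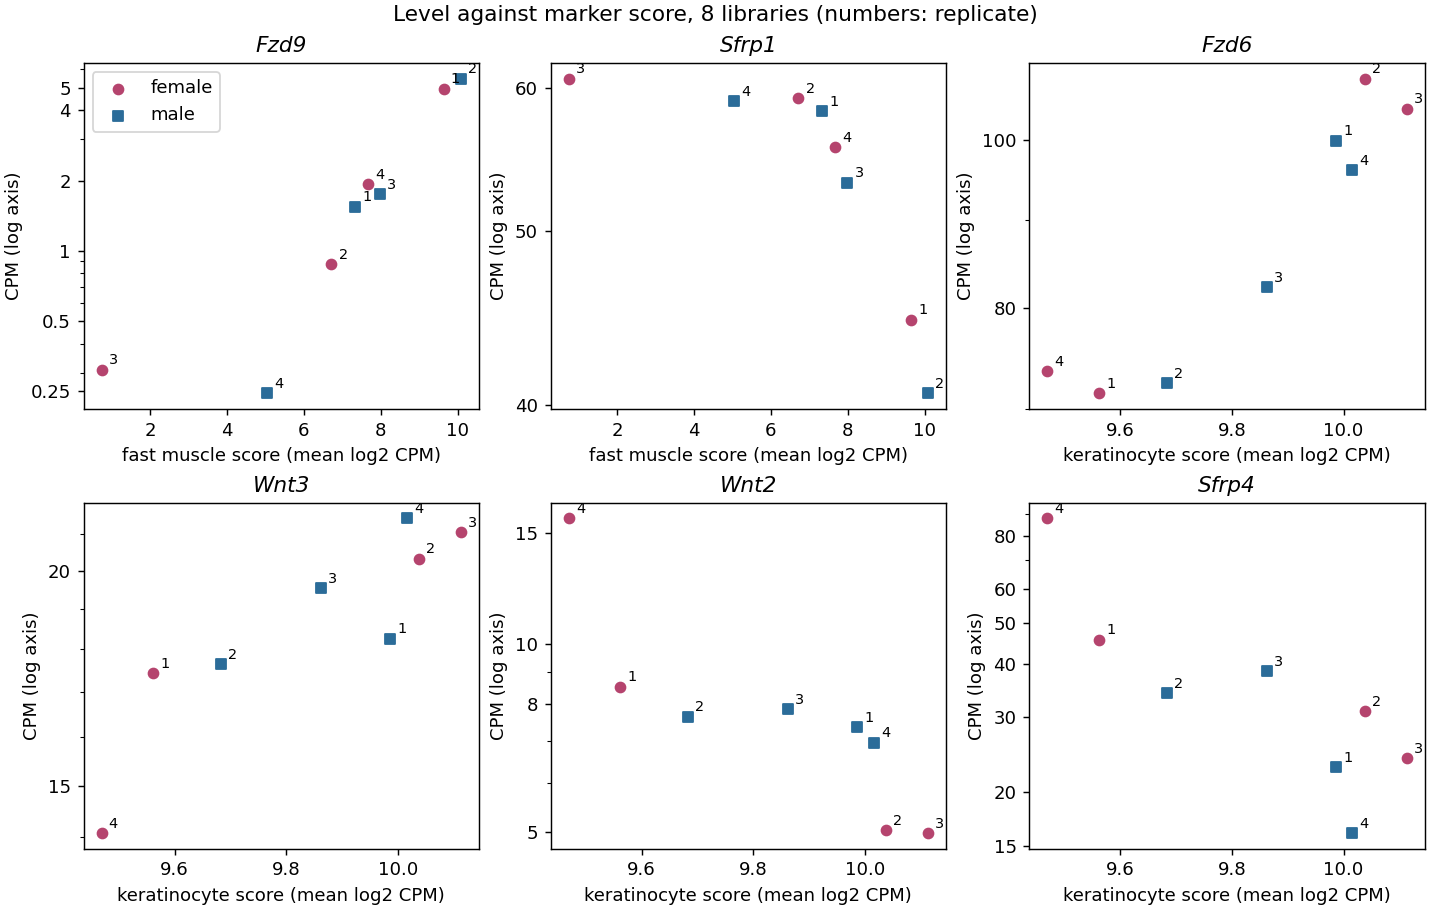
CPM (log axis) of 6 genes in the 8 libraries against the fast muscle score (Fzd9, Sfrp1) or the keratinocyte score (Fzd6, Wnt3, Wnt2, Sfrp4), each score being the mean log2 CPM of its markers; circles are females, squares males, and numbers replicates. Fzd9 climbs and Sfrp1 falls with muscle transcript (r = 0.89 and -0.75), Fzd6 and Wnt3 climb with keratinocyte transcript (0.93 and 0.89), and Wnt2 and Sfrp4 are highest in female replicate 4, the library of lowest keratinocyte score.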

How the data were processed

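Paw RNA of 4 female and 4 male mice was sequenced, per the labels' protocols, from a stranded poly(A) kit as 50 bp single-end reads; bcl2fastq, TopHat2 and HTSeq with build mm9 were used, per the submitters' processing notes, with versions, annotation and strand setting not given in the sources used here. Antisense reads therefore cannot be told apart. The authors deposited raw read counts per gene, 1 file per library. HTSeq's summary lines stayed out of library sizes (no feature 18.0 to 21.2%, ambiguous 0.198 to 0.231% of uniquely placed reads; 17427599 to 26386679 alignments were not unique).

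Counts were filtered by filterByExpr (14790 of 22609 genes), scaled by TMM and tested with edgeR 4.0.16 (glmQLFit, glmQLFTest, robust) in R 4.3.3, female over male, sex as sole term. Each SE was taken as the absolute log2 fold change divided by the root of its F statistic. Alternatives used DESeq2 1.42.0 and limma 3.58.1. Log2 CPM used a prior count of 2. Score relations used all 40320 pairings, two-sided. Coding lengths came from GENCODE M21 (GRCm38), lengths only. The edgeR fit and the permutation code were checked on simulated data. Libraries of 1 sex differed by chi-square per degree of freedom of 13.2 or more, so each was 1 replicate. Counting limits cover counting error only.

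Members and lists were chosen with earlier results of these data known. Named in full were the 4 genes of smallest p per direction and the 3 of highest level among the Wnt, the Fzd, and the Sfrp and Dkk genes; of each pathway list the 2 of smallest p. Fzd4, Wnt6, Fzd2, Dkk2, Fzd3, Axin2, Sfrp5, Frzb, Ndp and the marker genes were singled out after their values were seen.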

Additional observations from a re-analysis of the deposited data

Results flagged for a closer look

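For each of the 30 tested genes and 4 marker scores the libraries of each sex were screened for a single value standing off from its group, 68 screens in all. Such a value turned up 3 times, and by chance about 1 screen in 20 would give one. Male replicate 3 was high for Fzd1, with 5.97 log2 CPM where the other males had 5.74 to 5.75. Female replicate 1 was low for Sfrp2, with 3.96 log2 CPM where the other females had 4.54 to 4.60. Male replicate 4 was low for Wnt9a, with 2.94 log2 CPM where the other males had 4.09 to 4.23.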

How the results depend on the processing

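Over 30 genes and 17 alternative fits (507 values), 461 kept their direction and their side of the threshold, 1 gained a call (Dkk3 with DESeq2) and 45 changed sign, none of them past the threshold in any fit; the cause was not tested. Fzd2 was at -0.005 with RLE scaling, -0.004 with upper quartile scaling, -0.006 with DESeq2 and -0.018 with limma-voom. With the fast muscle covariate Fzd6 was at -0.068, Fzd7 at 0.010, Fzd9 at 0.36, Sfrp1 at -0.011 and Wnt6 at 0.068. Without female replicate 3 and male replicate 2 together, a fit chosen after seeing the data, Fzd4 was at 0.20, Fzd6 at -0.149, Fzd7 at 0.058, Fzd9 at 1.11, Sfrp1 at -0.109 and Wnt6 at 0.128. With 1 library left out, log2 fold changes ran from -0.209 to 0.158 for Fzd2, -0.544 to 0.093 for Fzd4, -0.077 to 0.120 for Fzd6, -0.109 to 0.039 for Fzd7, -1.10 to 0.738 for Fzd9, -0.055 to 0.146 for Sfrp1, -0.248 to 0.080 for Sfrp2, -0.245 to 0.629 for Sfrp5, -0.059 to 0.181 for Wnt11, -0.281 to 0.399 for Wnt2, -0.154 to 0.024 for Wnt3, -0.326 to 0.026 for Wnt3a, -0.298 to 0.016 for Wnt5a and -0.285 to 0.069 for Wnt6.

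Over all genes edgeR called 14 (6 higher and 8 lower in females). DESeq2 called 111 (54 and 57), 1 of them a member. Without female replicate 3 and male replicate 2 there were 9 calls, 5 of them lower. With 1 library left out there were 8 to 16 calls, 2 to 7 of them higher in females. The replicate block gave 7 calls (2 and 5) and Fzd2 at -0.032. Whether replicate numbers pair the samples is not stated in the sources used here, and they were treated as unpaired. Same-numbered libraries had correlations of -0.308 to -0.091 of their deviations from the group means, which cannot settle the pairing. Without the 2 libraries farthest from each median score, 0 genes and 0 members were called for the muscle, keratinocyte and fibroblast scores, where 6 libraries allow no more than 720 pairings. RLE scaling gave 30 fibroblast calls over all genes in place of 170. Depth limits the 7 untested genes, and the 4 libraries per sex limit which differences could be called.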
